A study of Mus musculus with 15 samples.

Results

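This comparison set colon tissue of APX3330-treated mice against colon tissue of saline-treated mice collected at day 27, in a mouse model of tumours that arise from chronic colitis. It rests on 6 of the 15 RNA-seq libraries of the series, 3 per group, taken by the group that the labels give each library, and on every gene of the deposited count table. Of 56859 genes in that table, 18038 had enough counts to be tested. Both groups consisted of male C57BL/6J mice aged 6 to 10 weeks that received azoxymethane (AOM, a carcinogen that acts on the colon) intraperitoneally at 10 mg/kg on day 0. The protocol of the series then plans dextran sulfate sodium (DSS, a polymer that damages the colonic lining) at 2.5% in the drinking water in 3 periods, from day 7 to day 11, then from day 28 to day 32 and then from day 49 to day 53. APX3330, also named E3330, was injected intraperitoneally at 25 mg/kg once a day during the DSS periods, and the placebo group received saline in its place. Tissue collected at day 27 precedes the second and the third of these periods, so saline D27 had 1 DSS and injection period. The other 9 libraries (saline D48, saline D100 and Control, 3 each) entered the filter on low counts, the estimate of spread and the choice of the most variable genes. They also entered the scaling of the libraries (TMM), the measure of GC content and its offset, and the fits with scores or replicate numbers. Otherwise they are used below only to set levels in context. By their days, saline D48 had 2 DSS periods and saline D100 had 3, with AOM and saline as in saline D27. Control is labelled wild type C57BL/6 with no agent, although the shared protocol gives AOM to all mice, so whether Control received it is not settled. D27, D48 and D100 are read as days from the column names of the count table, while the titles call D48 cycle1 and D100 cycle2 and give saline D27 no cycle, so the days rest on those names alone.

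The titles of the 6 libraries differ in E3330 or saline alone, but the labels give no collection day for the APX3330 group. The number of DSS and injection periods of that group is thus unknown and may differ from that of saline D27. An effect of the compound, of the day of collection and of the number of DSS periods therefore cannot be told apart in any value below. Nothing in the labels states that the 3 libraries of a group came from 3 animals. The spread behind each p-value is that of these libraries and may be technical.

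APX3330 inhibits the redox activity of APE1/Ref-1, the product of Apex1, a protein that also cuts DNA at abasic sites during base excision repair. Through its redox activity this protein is known to keep several transcription factors, among them AP-1, NF-kB and HIF-1, in a form that binds DNA. In the colon, epithelium injured by DSS regrows from crypts while leukocytes enter the mucosa, and the surrounding muscle, nerve plexus and fat contribute to the RNA of a whole-tissue sample. In bulk tissue, fewer cells of a type and less RNA per cell cannot be told apart.

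Apex1 (chromosome 14, 50924968 to 50927139, plus strand), which encodes the target protein, had 3.31, 4.33 and 5.16 CPM in the APX3330 libraries, against 7.03, 6.20 and 4.34 CPM in the saline D27 libraries. The groups overlapped in 1 library of saline D27, and the difference was not called (log2 fold change -0.46 ± 0.29 (SE), edgeR adjusted p = 0.323). The inhibitor acts on the protein, so the transcript level does not check the labels. Here and below CPM are counts scaled to library size after TMM, values run from replicate 1 to replicate 3, and called means a Benjamini-Hochberg adjusted p below 0.05 in edgeR's quasi-likelihood test over all 18038 genes. Coordinates are those of GENCODE M21 on GRCm38.

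Total counts of the 6 libraries ran from 14787313 to 17919613. The APX3330 libraries had between 22548 and 22772 genes with a count, against 24004 to 24775 in the saline D27 libraries. Over the 500 most variable genes, distances between an APX3330 and a saline D27 library (1.61 to 2.02 on the log2 scale) overlapped those among APX3330 libraries (1.44 to 1.65) and exceeded those among saline D27 libraries (1.10 to 1.32). Markers of the colonic epithelium made up 0.999% to 1.28% of the counts with APX3330 and 1.19% to 1.31% at saline D27. Genes of low GC content stood higher with APX3330. The median log2 deviation of the lowest quintile of genes by transcript GC content minus that of the highest quintile was 0.124, 0.270 and 0.156 in the APX3330 libraries, against -0.193, -0.367 and 0.108 in the saline D27 libraries. Saline D27 replicate 3 lay next to APX3330 replicate 1 in this measure, and the calls made with an offset for GC content, an alternative added after seeing the data, are given beside most groups of genes.

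**Figure D1:**
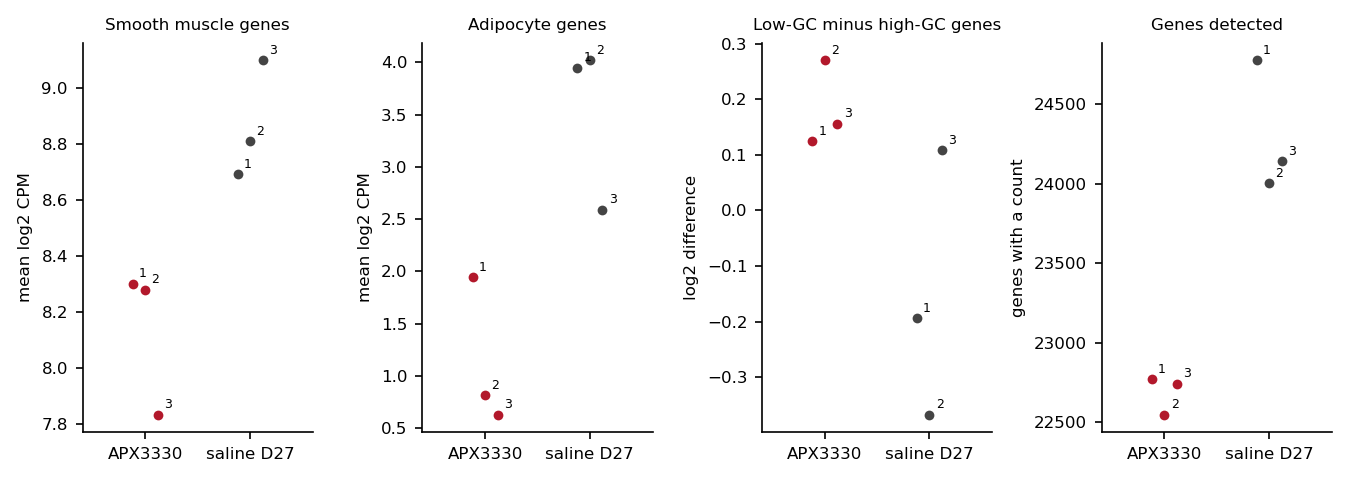
Properties of the 3 APX3330 libraries (left in each panel, red) and the 3 saline D27 libraries (right, grey), with replicate numbers beside the points. From left to right the panels show the mean log2 CPM of the smooth muscle genes, the mean log2 CPM of the adipocyte genes, the median log2 deviation of low-GC genes minus that of high-GC genes, and the number of genes with a count. The groups do not overlap in the smooth muscle, adipocyte and gene number panels, and saline D27 replicate 3 at 0.108 is close to the APX3330 libraries in the GC panel.

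Of the 18038 genes, 850 (4.71%) were called higher and 788 (4.37%) lower with APX3330, 9.08% in either direction. The median log2 fold change was 0.46 among the genes called higher and -0.77 among those called lower, against -0.01 over all tested genes. Past a change of 1 on the log2 scale stood 63 of the higher (0.349% of tested genes) and 265 of the lower genes (1.47%), so the larger changes were mostly falls. Without overlap between the groups, whether called or not, were 2516 genes higher (13.9%) and 2763 lower (15.3%). Among called genes, 239 of the 850 higher (28.1%) and 224 of the 788 lower (28.4%) also lay outside all 9 saline libraries of the 3 days. Over all tested genes that position was held by 2.74% on the high side and 2.55% on the low side, counts that share the saline D27 libraries with the calls.

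The number of calls depended on single libraries. Without APX3330 replicate 2 it was 238 higher and 268 lower, and without APX3330 replicate 3 it was 263 and 267. Leaving out replicate 1 of saline D27 gave 191 and 228, and leaving out replicate 2 of that group gave 139 and 223. The counts were 1037 and 853 without APX3330 replicate 1, and 997 and 833 without saline D27 replicate 3. With a smooth muscle score as a covariate 2 genes remained called higher and 0 lower, and with an adipocyte score 0 in each direction (1445 at an unadjusted p below 0.05, against 4893 without it). Both scores separated the groups completely, so tissue composition and treatment cannot be told apart by these fits.

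**Figure D2:**
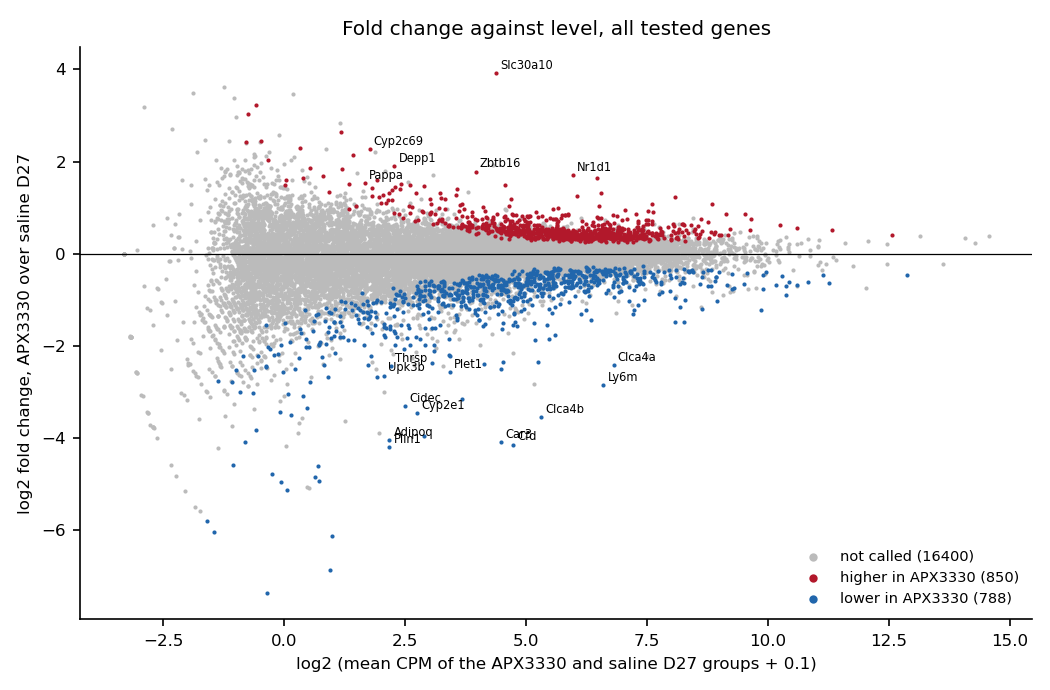
Log2 fold change of APX3330 over saline D27 (vertical axis) against log2 of the mean CPM of both groups plus 0.1 (horizontal axis), with 1 point per tested gene. Red points are the 850 genes called higher, blue points the 788 called lower and grey points those not called. The 12 largest falls and 6 of the 12 largest rises among the named genes carry their symbols, from 3.92 for Slc30a10 to -4.20 for Plin1.

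Among the named genes the largest rise belonged to Slc30a10 (chromosome 1, 185454848 to 185468762, plus strand), a transporter that moves manganese out of cells. It had 12.8, 44.4 and 58.4 CPM with APX3330 and 2.23, 1.31 and 4.03 CPM at saline D27. Each APX3330 library exceeded every one of the 9 saline libraries, although replicate 1 was well below the other two (log2 fold change 3.92 ± 0.73 (SE), edgeR adjusted p = 0.00835). Its means elsewhere were 4.43 ± 2.77 CPM at saline D48, 2.56 ± 2.92 CPM at saline D100 and 18.6 ± 5.81 CPM in Control (SD, n = 3, as for each mean).

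Nr1d1 (chromosome 11, 98767932 to 98775333, minus strand), the heme-sensing clock repressor REV-ERB alpha, had 64.6, 122 and 98.7 CPM with APX3330 and 26.4, 20.4 and 40.3 CPM at saline D27. The groups were apart, while the Control mean stood above both (log2 fold change 1.71 ± 0.37 (SE), edgeR adjusted p = 0.0141; 20.3 ± 10.2 CPM at saline D48, 69.1 ± 24.5 CPM at saline D100 and 169 ± 60.97 CPM in Control). Zbtb16, a transcriptional repressor induced by glucocorticoids, had 10.1, 28.7 and 33.1 CPM in the APX3330 libraries, against 8.75, 6.54 and 5.52 CPM in the saline D27 libraries. Replicate 1 exceeded the highest saline D27 library only narrowly (log2 fold change 1.78 ± 0.43 (SE), edgeR adjusted p = 0.0221).

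Further rises of the 12 were at low levels. Cyp2c69, a cytochrome P450 of the 2C family, had 5.74, 5.001 and 5.63 CPM with APX3330 and 1.62, 0.689 and 1.05 CPM at saline D27 (log2 fold change 2.26 ± 0.36 (SE), edgeR adjusted p = 0.00457). Reads of the Cyp2c genes can be shared between near-identical copies, so this value is uncertain. Depp1, a target of FOXO factors, had 9.59, 7.33 and 5.49 CPM in the APX3330 libraries, against 2.40, 2.34 and 1.24 CPM in the saline D27 libraries (log2 fold change 1.90 ± 0.39 (SE), edgeR adjusted p = 0.0118). Ckmt2, a mitochondrial creatine kinase, had 2.63, 4.33 and 3.88 CPM with APX3330 and 1.39, 1.10 and 1.30 CPM at saline D27 (log2 fold change 1.51 ± 0.39 (SE), edgeR adjusted p = 0.0269). Both were higher in all 3 APX3330 libraries, which the rule for the 12 rises required. Ankrd37, a target of HIF-1, was called at the threshold itself with 5.47, 10.7 and 6.97 CPM in the APX3330 libraries, against 4.41, 1.58 and 2.11 CPM in the saline D27 libraries (log2 fold change 1.504 ± 0.45 (SE), edgeR adjusted p = 0.04996). Foxn1, a forkhead factor of thymic epithelium and hair follicles, Edn2, which encodes endothelin 2, Pappa, a protease of IGF-binding proteins, and Pbld1 had log2 fold changes of 1.495, 1.46, 1.54 and 1.42 (edgeR adjusted p = 0.0247, 0.0211, 0.027 and 0.0301). Of the 12 rises, 3 lay above all 9 saline libraries: Slc30a10, Ckmt2 and Pbld1.

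The 12 largest falls included 4 members of the adipocyte list, Plin1, Cfd, Adipoq and Cidec. Plin1 (chromosome 7, 79720218 to 79732903, minus strand), which coats lipid droplets, had 1.22, 0.0667 and 0.067 CPM with APX3330 and 10.2, 12.3 and 2.60 CPM at saline D27 (log2 fold change -4.20 ± 0.78 (SE), edgeR adjusted p = 0.00835). Cfd (chromosome 10, 79890853 to 79892655, plus strand), the adipokine adipsin, had 7.43, 0.667 and 0.402 CPM in the APX3330 libraries, against 72.9, 64.9 and 12.9 CPM in the saline D27 libraries (log2 fold change -4.15 ± 0.90 (SE), edgeR adjusted p = 0.0142). Adipoq (chromosome 16, 23146536 to 23158028, plus strand), which encodes adiponectin, was at 0 in APX3330 replicates 2 and 3, with 1.49, 0 and 0 CPM with APX3330 and 11.3, 11.2 and 2.42 CPM at saline D27 (log2 fold change -4.05 ± 1.02 (SE), edgeR adjusted p = 0.0248). In each of these genes APX3330 replicate 1 was the highest of its group and saline D27 replicate 3 the lowest of its own. Car3, a carbonic anhydrase abundant in fat and muscle, Cidec, a lipid droplet protein, Thrsp, a regulator of lipid synthesis, and Cyp2e1, a cytochrome P450 that oxidises ethanol, had log2 fold changes of -4.10, -3.31, -2.44 and -3.46 (edgeR adjusted p = 0.0197, 0.00835, 0.0105 and 0.0171).

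Over the adipocyte list, 9 of 11 tested members (81.8%) were called lower and 1 (9.09%) higher, with a median log2 fold change of -3.31. The one that rose was Pparg, a lipid-sensing nuclear receptor that colonocytes express too, with 50.5, 47.7 and 45.9 CPM in the APX3330 libraries, against 31.4, 35.2 and 30.1 CPM in the saline D27 libraries (log2 fold change 0.58 ± 0.11 (SE), edgeR adjusted p = 0.00813). Plin4, another lipid droplet protein, had 12.4, 15.3 and 8.91 CPM with APX3330 and 33.7, 32.9 and 24 CPM at saline D27, apart in every library (log2 fold change -1.31 ± 0.19 (SE), edgeR adjusted p = 0.0032). Retn, which encodes resistin, had 2 counts in all with APX3330 and 180 at saline D27. The adipocyte genes summed to 0.00890% to 0.0128% of the counts with APX3330 and 0.0134% to 0.0271% at saline D27, beside 0.0120% to 0.0182% at saline D48 and 0.0176% to 0.0229% at saline D100. The count of falls was 4 without APX3330 replicate 2 or 3, and 4 without replicate 1 or 2 of saline D27.

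Upk3b, an uroplakin that also marks the mesothelium covering the gut, was at 0 in APX3330 replicate 2, with 1.15, 0 and 2.21 CPM in the APX3330 libraries, against 7.58, 4.13 and 9.43 CPM in the saline D27 libraries (log2 fold change -2.65 ± 0.79 (SE), edgeR adjusted p = 0.0486). It was the only one of the 12 falls that overlapped another saline day. Ly6m, of the Ly6 family of surface proteins, had 1.89, 27.2 and 41.3 CPM with APX3330 and 118, 269 and 123 CPM at saline D27 (log2 fold change -2.85 ± 0.81 (SE), edgeR adjusted p = 0.0391). APX3330 replicate 1 had the lowest value here, the reverse of its place in the fat genes. Ly6 genes resemble each other, so reads may be split between them.

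**Figure D3:**
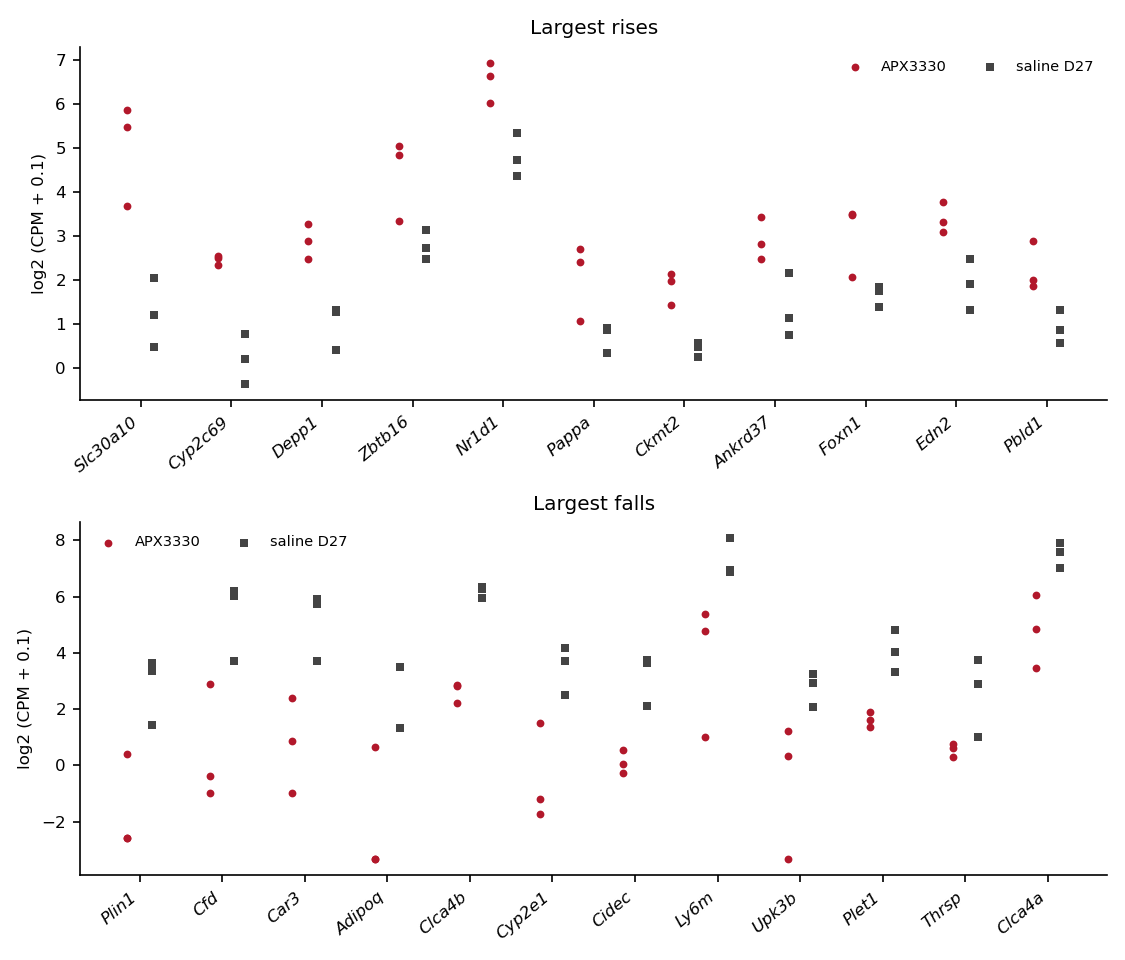
Levels of 11 of the 12 largest rises (top) and the 12 largest falls (bottom) as log2 of CPM plus 0.1, with 1 point per library. Red circles are the 3 APX3330 libraries and grey squares the 3 saline D27 libraries. No gene shows an overlap, which the rule for these genes required, and single libraries spread widely in Slc30a10, Ly6m and the adipocyte genes.

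Genes of the muscle wall were lower as a group. Of 13 tested smooth muscle genes, 12 (92.3%) were called lower and 0 higher, and their median log2 fold change was -0.70. All 13 lay below saline D27 without overlap, against 15.3% of all tested genes. Cnn1 (chromosome 9, 22099216 to 22109630, plus strand), the actin-binding calponin of smooth muscle, had 475, 479 and 398 CPM in the APX3330 libraries, against 655, 778 and 863 CPM in the saline D27 libraries (log2 fold change -0.76 ± 0.12 (SE), edgeR adjusted p = 0.00354). Des, the intermediate filament desmin, had 936, 938 and 778 CPM with APX3330 and 1210, 1434 and 1626 CPM at saline D27 (log2 fold change -0.69 ± 0.13 (SE), edgeR adjusted p = 0.00812). APX3330 replicate 3 was the lowest and saline D27 replicate 3 the highest library in both. Lmod1, a nucleator of actin filaments, and Smtn, which encodes smoothelin, had log2 fold changes of -0.80 and -0.81 (edgeR adjusted p = 0.00418 and 0.00632). The list summed to 0.616% to 0.809% of the counts with APX3330 and 1.03% to 1.38% at saline D27. It made up 0.741% to 0.844% at saline D48 and 0.700% to 0.950% at saline D100, which overlap APX3330 and lie below saline D27, and 1.45% to 1.57% in Control. The count was 9 with the GC offset, 6 without APX3330 replicate 3 or saline D27 replicate 3, and 7 without saline D27 replicate 2.

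Enteric neuron and glia genes showed the same direction, with 5 of 12 (41.7%) called lower, 0 higher and a median of -0.80. Vip (chromosome 10, 5639218 to 5647617, plus strand), the vasoactive intestinal peptide of enteric neurons, had 21.8, 21 and 17.3 CPM in the APX3330 libraries, against 37.4, 36.5 and 48 CPM in the saline D27 libraries, apart from all 9 saline libraries (log2 fold change -1.02 ± 0.18 (SE), edgeR adjusted p = 0.00632). Ret, the receptor on which the enteric nervous system depends, had 10.9, 8.60 and 9.65 CPM with APX3330 and 16.4, 17.3 and 18.7 CPM at saline D27 (log2 fold change -0.85 ± 0.15 (SE), edgeR adjusted p = 0.00632). Nos1, the neuronal nitric oxide synthase, and Uchl1, a ubiquitin hydrolase of neurons, had log2 fold changes of -0.82 and -0.88 (edgeR adjusted p = 0.012 and 0.0235). The list summed to 0.00794% to 0.00942% of the counts with APX3330, 0.0137% to 0.0163% at saline D27, 0.00894% to 0.0125% at saline D48 and 0.00960% to 0.0101% at saline D100. The GC offset gave 5 calls, and 3 were made without APX3330 replicate 2 or 3 and without replicate 1 or 2 of saline D27.

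Fibroblast and matrix genes were lower in 6 of 17 (35.3%) and higher in 0, with a median of -0.27. Sparc, a collagen-binding matrix protein, had 256, 209 and 215 CPM in the APX3330 libraries, against 334, 288 and 343 CPM in the saline D27 libraries (log2 fold change -0.51 ± 0.10 (SE), edgeR adjusted p = 0.0105). Mmp3, a metalloproteinase that degrades matrix, had 1.55, 1.27 and 1.74 CPM with APX3330 and 3.85, 3.86 and 4.47 CPM at saline D27, lower in all 3 libraries (log2 fold change -1.41 ± 0.35 (SE), edgeR adjusted p = 0.0243). Col1a2 and Thy1, a fibrillar collagen chain and a stromal surface protein, had log2 fold changes of -0.40 and -0.69 (edgeR adjusted p = 0.0222 and 0.0247). Under the GC offset 3 were called, 1 without APX3330 replicate 2 or 3 or saline D27 replicate 1, and 2 without saline D27 replicate 2. In endothelial genes, 0 of 12 were called lower (0 at an unadjusted p below 0.05, 0 by DESeq2 and 0 by limma-voom) and 1 was higher, the VEGF receptor Flt1 (log2 fold change 0.64 ± 0.14 (SE), edgeR adjusted p = 0.0146).

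Some epithelial genes that the regenerating colon expresses were lower. Of 13 tested members of that list 5 (38.5%) were called lower and 0 higher, 11 had negative and 2 positive log2 fold changes, and the median was -1.20. Plet1 (chromosome 9, 50494525 to 50505482, plus strand), a surface protein of wound-associated epithelium, had 2.50, 3.001 and 3.62 CPM in the APX3330 libraries, against 9.81, 28.3 and 16.2 CPM in the saline D27 libraries. All 3 APX3330 libraries were below all 9 saline libraries (log2 fold change -2.57 ± 0.38 (SE), edgeR adjusted p = 0.0032; 40.8 ± 5.17 CPM at saline D48, 24.8 ± 5.82 CPM at saline D100 and 1.41 ± 0.902 CPM in Control). Clca4b (chromosome 3, 144910921 to 144932529, minus strand), of the family of chloride channel accessory proteins, had 4.59, 7.07 and 7.10 CPM with APX3330 and 61.6, 77.05 and 80.6 CPM at saline D27, a fall in every library (log2 fold change -3.54 ± 0.69 (SE), edgeR adjusted p = 0.00977; 411 ± 144 CPM at saline D48, 108 ± 123 CPM at saline D100 and 14.5 ± 9.76 CPM in Control). Clca4a, its near copy, had 10.9, 28.7 and 66.2 CPM in the APX3330 libraries, against 130.1, 241 and 193 CPM in the saline D27 libraries (log2 fold change -2.41 ± 0.49 (SE), edgeR adjusted p = 0.0113). Reads of these copies may be split between them. Ly6a, the stem cell antigen Sca-1, had 274, 221 and 233 CPM with APX3330 and 592, 617 and 461 CPM at saline D27 (log2 fold change -1.20 ± 0.20 (SE), edgeR adjusted p = 0.00579). With the GC offset 5 were called, and 3 to 5 with each library left out (3 without APX3330 replicate 2 or saline D27 replicate 2). Markers of crypt stem cells and Wnt targets gave 0 calls among 15 genes (2 higher and 1 lower at an unadjusted p below 0.05, 0 by DESeq2 and 1 by limma-voom).

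Host defence genes of the epithelium moved in both directions. Duoxa2 (chromosome 2, 122298900 to 122302885, plus strand) is the maturation factor of the oxidase Duox2, which releases hydrogen peroxide at the mucosal surface. It had 8.65, 15 and 13.1 CPM in the APX3330 libraries, against 59.7, 81.8 and 47.01 CPM in the saline D27 libraries, below all 9 saline libraries (log2 fold change -2.36 ± 0.32 (SE), edgeR adjusted p = 0.00265; 83.5 ± 15.2 CPM at saline D48, 30.7 ± 12.1 CPM at saline D100 and 14.8 ± 5.80 CPM in Control). Duox2 (chromosome 2, 122279247 to 122298449, minus strand) itself had 126, 173 and 184 CPM with APX3330 and 452, 506 and 402 CPM at saline D27, again with no overlap (log2 fold change -1.49 ± 0.26 (SE), edgeR adjusted p = 0.00632). Lypd8, which keeps flagellated bacteria from the epithelium, had 5685, 6379 and 6805 CPM in the APX3330 libraries, against 9410, 8207 and 8332 CPM in the saline D27 libraries (log2 fold change -0.46 ± 0.09 (SE), edgeR adjusted p = 0.0105). Gbp2, an interferon-induced guanylate-binding protein, had 52.5, 42.1 and 38.5 CPM with APX3330 and 92.8, 61.5 and 95.95 CPM at saline D27 (log2 fold change -0.91 ± 0.23 (SE), edgeR adjusted p = 0.0254). Pigr, the receptor that carries IgA into the lumen, was the single member called higher and was named after its values were seen (log2 fold change 0.39 ± 0.11 (SE), edgeR adjusted p = 0.0414). In all 4 of 15 members (26.7%) were called lower and 1 (6.67%) higher, with a median of -0.74. With each library left out 3 or 4 were lower, and 1 was higher only in the fit without saline D27 replicate 3.

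Complement and acute-phase transcripts included further falls. C3 (chromosome 17, 57203970 to 57228136, minus strand), the central complement protein, had 279, 177 and 166 CPM in the APX3330 libraries, against 452, 422 and 384 CPM in the saline D27 libraries. Its APX3330 values lay below all 9 saline libraries (log2 fold change -1.02 ± 0.19 (SE), edgeR adjusted p = 0.00874; 714 ± 158 CPM at saline D48, 401 ± 34.9 CPM at saline D100 and 134 ± 24.2 CPM in Control). Cd55, which protects cells from complement, and C1ra, a protease of the classical pathway, had log2 fold changes of -0.64 and -0.39 (edgeR adjusted p = 0.0186 and 0.028). These made 3 of 12 complement genes (25.0%) called lower and 0 higher, and 1 to 3 with each library left out (1 without APX3330 replicate 3 or saline D27 replicate 1). Among genes of neutrophils and acute inflammation 3 of 16 (18.8%) were called lower and 0 higher, with a median of -1.12. Nos2, the inducible nitric oxide synthase, had 8.31, 8.002 and 9.45 CPM with APX3330 and 29.6, 27.5 and 19.7 CPM at saline D27 (log2 fold change -1.57 ± 0.43 (SE), edgeR adjusted p = 0.0331). Saa1, a serum amyloid made by colonic epithelium, had 183, 441 and 344 CPM in the APX3330 libraries, against 743, 513 and 731 CPM in the saline D27 libraries (log2 fold change -1.04 ± 0.25 (SE), edgeR adjusted p = 0.0229). S100a9, a calprotectin subunit of neutrophils, had 2 counts in all with APX3330 and 80 at saline D27. Under the GC offset 1 was called, and 0 without APX3330 replicate 3 or saline D27 replicate 1. Lcn2, which encodes lipocalin 2, was not called (log2 fold change -1.16 ± 0.37 (SE), edgeR adjusted p = 0.0626).

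**Figure D4:**
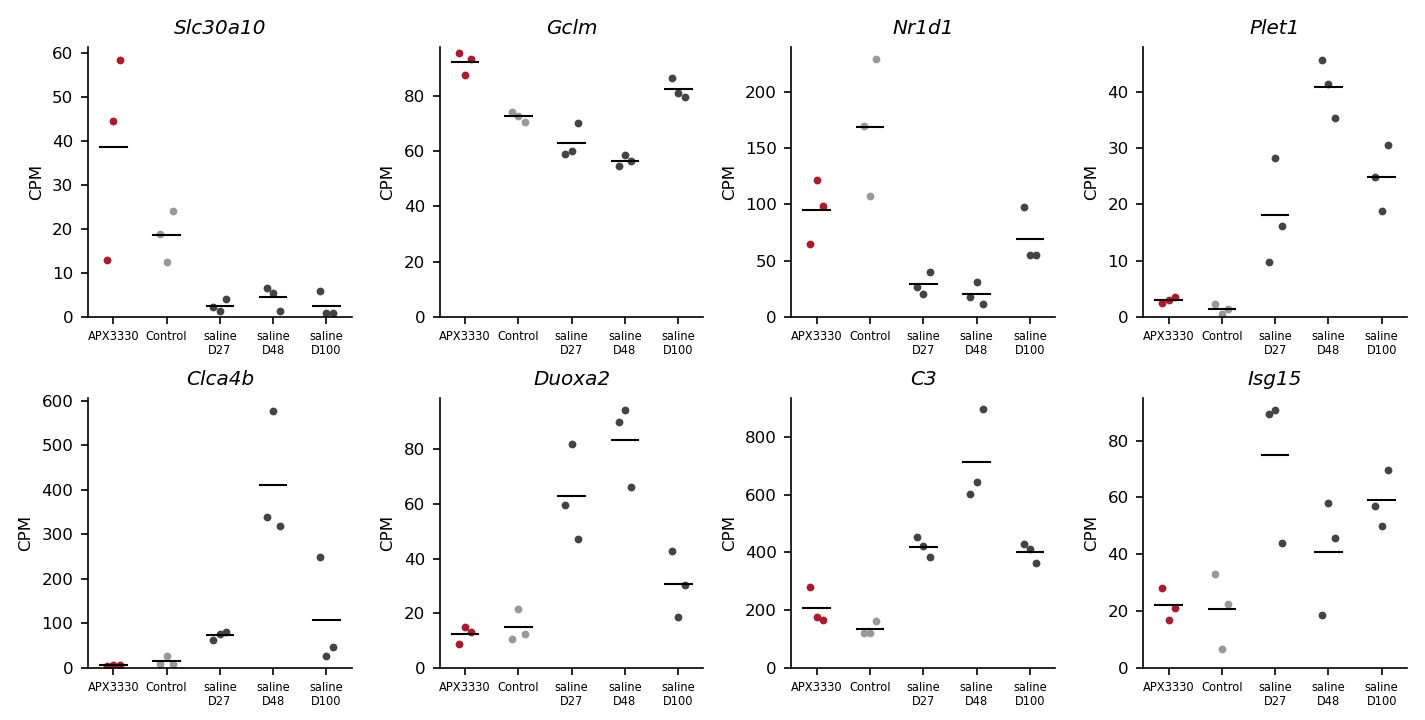
CPM of 8 genes in all 15 libraries, with 1 point per library and a bar at the mean of 3. APX3330 is at the left of each panel in red, followed by Control in light grey and saline D27, D48 and D100 in dark grey. With APX3330, Plet1, Clca4b, Duoxa2 and C3 lie below every saline library, Slc30a10 and Gclm lie above every one, and Nr1d1 and Isg15 overlap 1 or more libraries of another saline day.

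Interferon-response genes all pointed downward: 18 of 18 tested members had a negative log2 fold change, 4 (22.2%) were called lower, 0 higher, and the median was -0.79. Rsad2 (chromosome 12, 26442746 to 26456452, minus strand), the antiviral enzyme viperin, had 13.4, 8.94 and 13.5 CPM with APX3330 and 38.9, 33.1 and 29.3 CPM at saline D27. Each APX3330 library was below all 9 saline libraries (log2 fold change -1.497 ± 0.25 (SE), edgeR adjusted p = 0.00616). Isg15 (chromosome 4, 156199424 to 156200818, minus strand), a ubiquitin-like modifier, had 27.97, 17 and 21.2 CPM in the APX3330 libraries, against 89.5, 90.8 and 44.1 CPM in the saline D27 libraries, with saline D27 replicate 3 nearest to APX3330 (log2 fold change -1.76 ± 0.46 (SE), edgeR adjusted p = 0.0276). Ifit2, which binds viral RNA, and Irf7, a master factor of interferon induction, had log2 fold changes of -1.47 and -0.88 (edgeR adjusted p = 0.0248 and 0.0361). The list made up 0.0629% to 0.103% of the counts with APX3330 and 0.104% to 0.178% at saline D27, beside 0.0689% to 0.122% at saline D48 and 0.135% to 0.178% at saline D100. With the GC offset 3 were called, and 1 without APX3330 replicate 2 or 3, or without replicate 1 or 2 of saline D27.

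Promoters of this list are shown because its members pointed one way and many share a word there. The interferon word GAAANNGAAA (N is any base, either strand, searched in the 250 bases before each RefSeq start) was found in 8 of the 12 list genes with a promoter (66.7%), in 4.50% of genes called lower, in 2.78% of genes called higher and in 3.37% of all 12531 tested genes with a promoter. Of these 8 genes, Isg15 and Rsad2 were called lower, and the other 6 (Ifit1, Ifit3, Oas1a, Oas3, Stat2 and Bst2) were not called. A match describes letters, not binding. The windows of the 2 called genes, Isg15 (chr4:156200830-156200941, minus strand) and Rsad2 (chr12:26456518-26456617, minus strand) from RefSeq on GRCm38.p6 follow, 5′ to 3′ along the gene, with the word in capitals. In Rsad2 the word stands on the opposite strand.
Isg15: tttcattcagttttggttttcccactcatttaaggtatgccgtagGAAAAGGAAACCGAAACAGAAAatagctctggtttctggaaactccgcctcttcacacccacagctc
Rsad2: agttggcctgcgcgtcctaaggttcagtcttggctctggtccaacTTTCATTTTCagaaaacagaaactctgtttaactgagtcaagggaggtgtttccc
The Isg15 window holds 3 overlapping matches and the Rsad2 window 1. For the smooth muscle genes, the CArG box, the site of serum response factor, was found in 1 of 10 genes with a promoter (10.0%), against 2.88% of genes called lower, 0.62% of genes called higher and 1.46% of all. The AP-1, hypoxia and interferon words were each in 1 of these 10 genes as well. The CArG box was in 2 of 12 AP-1 and immediate early genes (16.67%) and in 0 of the interferon, MHC class I, clock and HIF-1 lists. The smooth muscle gene with the box was Myl9, a myosin light chain named after its values were seen (log2 fold change -0.59 ± 0.15 (SE), edgeR adjusted p = 0.0268), whose window (chr2:156775258-156775357, plus strand) has the box in capitals.
Myl9: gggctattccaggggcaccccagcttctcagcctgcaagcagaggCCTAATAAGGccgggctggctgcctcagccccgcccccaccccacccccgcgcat
The AP-1 word TGAGTCA was in 6.83% of genes called lower, 4.78% of those called higher and 4.47% of all, and the hypoxia word ACGTGC in 3.78%, 8.64% and 7.53%, on either strand. None of these words contains another. Called genes also differed in transcript GC content (median 54.7% for lower, 46.1% for higher and 50.5% for all), and its part in these shares was not tested.

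Genes of antigen presentation by MHC class I were lower as well. All 11 tested members had negative log2 fold changes, 7 (63.6%) were called lower, 0 higher, and the median was -0.68. Psmb8 (chromosome 17, 34197721 to 34201454, plus strand), an immunoproteasome subunit, had 23.2, 16.2 and 13.7 CPM with APX3330 and 49.8, 43.4 and 32.5 CPM at saline D27 (log2 fold change -1.24 ± 0.25 (SE), edgeR adjusted p = 0.0111). Irf1, a factor that drives this pathway, had 91.2, 95.2 and 114 CPM in the APX3330 libraries, against 176, 139.9 and 153 CPM in the saline D27 libraries (log2 fold change -0.64 ± 0.14 (SE), edgeR adjusted p = 0.0131). The groups did not overlap in either gene. Psmb10, a further immunoproteasome subunit, and Tapbp, which loads peptides, had log2 fold changes of -0.61 and -0.40 (edgeR adjusted p = 0.0113 and 0.0128). The number called was 4 with the GC offset, 1 without APX3330 replicate 2 or saline D27 replicate 1, 2 without APX3330 replicate 3 and 3 without saline D27 replicate 2. The 10 MHC class II genes were all negative too, with a median of -0.56 and 0 called (6 lower at an unadjusted p below 0.05, 1 by DESeq2 and 4 by limma-voom).

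Leukocyte markers gave few calls. All 12 B cell genes lay below saline D27 without overlap, against 15.3% of all tested genes. Their median was -1.40, but 2 (16.7%) were called: the antigen receptor subunits Cd79b and Cd79a. Cd79a had 21.8, 20.3 and 13.9 CPM with APX3330 and 55.8, 73.95 and 29.7 CPM at saline D27 (log2 fold change -1.51 ± 0.44 (SE), edgeR adjusted p = 0.0438), and Cd79b had 15.7, 9.34 and 7.57 CPM in the APX3330 libraries, against 32.1, 44.1 and 25.7 CPM in the saline D27 libraries (log2 fold change -1.64 ± 0.45 (SE), edgeR adjusted p = 0.0347). B cell genes summed to 0.00966% to 0.0137% of the counts with APX3330 and 0.0206% to 0.0419% at saline D27. Neither was called with the GC offset, and 0 to 2 were called with each library left out. Of 15 T cell genes all were negative and 1 (6.67%) was called, near the share of all genes. It was Cd4, the helper T cell coreceptor (log2 fold change -0.91 ± 0.24 (SE), edgeR adjusted p = 0.0318). The complement subunits of macrophages, C1qa, C1qb and C1qc, were the 3 of 15 macrophage and dendritic cell genes (20%) called lower, at -0.65, -0.62 and -0.59, and 0 were called with the GC offset. Among plasma cell genes 2 of 11 (18.2%) were called lower, Prdm1, the factor of plasma cell differentiation (-0.77), and the kappa chain constant gene Igkc (-0.89). Of 7 mast cell and eosinophil genes 2 (28.6%) were called lower, the proteases Mcpt1 and Mcpt2, which had 10 and 2 counts in all with APX3330 and 119 and 73 at saline D27. These genes are near copies, and their split is uncertain. With each library left out the number called lower was 0 or 1 in the T cell list, 0 to 4 in the plasma cell list and 0 to 3 in the mast cell and eosinophil list.

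**Figure D5:**
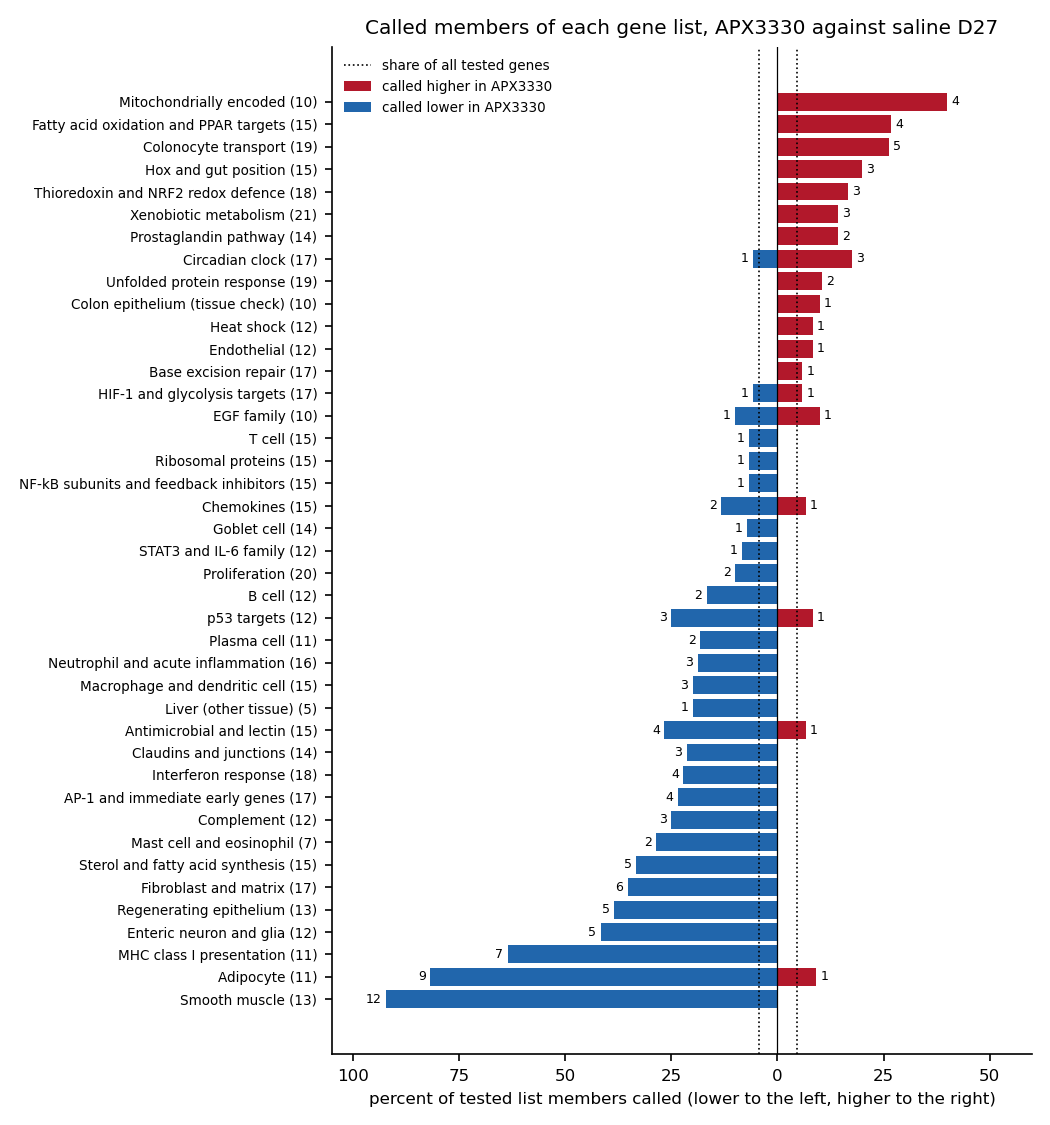
Share of tested members of each gene list that were called lower (blue, to the left) or higher (red, to the right) with APX3330 than at saline D27. The number tested stands in parentheses and the number called at the end of each bar, and lists with no call are left out. Dotted lines mark the shares over all tested genes, 4.37% lower and 4.71% higher. Smooth muscle (12 of 13) and adipocyte genes (9 of 11) extend farthest to the left and mitochondrially encoded genes (4 of 10) farthest to the right.

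For AP-1 and NF-kB, named above as targets of the redox activity of APE1/Ref-1, the lists hold subunits, immediate early genes and feedback inhibitors. For HIF-1 the list holds target genes. Transcript levels do not measure DNA binding by these factors, and a part of the redox activity in the values below was not tested. Of 17 AP-1 subunits and immediate early genes 4 (23.5%) were called lower and 0 higher, with a median of -0.48. Jund (chromosome 8, 70698949 to 70700616, plus strand), an AP-1 subunit, had 19.7, 25.1 and 20.4 CPM with APX3330 and 47.5, 50.8 and 43.2 CPM at saline D27, below all 9 saline libraries (log2 fold change -1.12 ± 0.15 (SE), edgeR adjusted p = 0.00265). Atf3 (chromosome 1, 191170296 to 191218039, minus strand), a stress-induced partner of AP-1, had 10.3, 25 and 30.2 CPM in the APX3330 libraries, against 66.7, 64.4 and 61.9 CPM in the saline D27 libraries, with APX3330 replicate 1 the lowest (log2 fold change -1.56 ± 0.30 (SE), edgeR adjusted p = 0.00918). Nr4a1, an immediate early nuclear receptor, and Dusp1, a phosphatase of MAP kinases, had log2 fold changes of -1.30 and -0.70 (edgeR adjusted p = 0.0199 and 0.0438). The call count was 3 with the GC offset and 2 or 3 with each library left out.

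The NF-kB list gave 1 call among 15 genes (6.67%), near the share of all genes, although 14 of the 15 were negative at a median of -0.28. It was the inhibitor Nfkbie, with 8.24, 7.93 and 8.37 CPM with APX3330 and 14.2, 17.1 and 13.3 CPM at saline D27 (log2 fold change -0.86 ± 0.23 (SE), edgeR adjusted p = 0.0302). Nfkbie was not called with the GC offset, and with a library left out it stayed called only without saline D27 replicate 3. Of 17 HIF-1 and glycolysis targets 1 was called higher, Ankrd37 as above, and 1 lower, the glycolytic enzyme Eno1 (log2 fold change -0.37 ± 0.11 (SE), edgeR adjusted p = 0.0433), each 5.88% and near the share of all genes, and the GC offset gave 1 higher and 0 lower. Of 12 STAT3 and IL-6 family genes 1 (8.33%) was lower, against 4.37% of all tested genes. It was the kinase Pim1, with 16.1, 19.2 and 15.5 CPM in the APX3330 libraries, against 34.2, 27.8 and 22.4 CPM in the saline D27 libraries (log2 fold change -0.73 ± 0.16 (SE), edgeR adjusted p = 0.0136). In the p53 list 3 of 12 (25.0%) were lower and 1 higher. Pmaip1, the apoptosis inducer Noxa, had 18.2, 20.7 and 17.4 CPM with APX3330 and 38.4, 32.98 and 40.7 CPM at saline D27 (log2 fold change -0.99 ± 0.16 (SE), edgeR adjusted p = 0.00487). Bax, a pore-forming apoptosis protein, and the death receptor Fas had log2 fold changes of -0.89 and -0.74, and Mdm2, which degrades p53, had 0.32 (edgeR adjusted p = 0.0205, 0.0216 and 0.0429). The GC offset gave 2 lower and 0 higher, and 1 to 3 were lower with each library left out.

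Of 17 base excision repair genes 1 (5.88%) was called higher and 0 lower, near the share of all genes. It was Tdg, a glycosylase that removes thymine from mismatches, with 50.2, 60.5 and 58.8 CPM in the APX3330 libraries, against 44.8, 39.1 and 43.1 CPM in the saline D27 libraries (log2 fold change 0.42 ± 0.09 (SE), edgeR adjusted p = 0.0168). In the list of thioredoxin and NRF2 redox defence 3 of 18 (16.7%) were higher and 0 lower, at a median of -0.01. Log2 fold changes were negative in 9 of the 18, down to -1.35. Without overlap, 4 lay above and 3 below saline D27, positions held by 13.9% and 15.3% of all tested genes. Members higher and lower were 4 and 3 at an unadjusted p below 0.05, 3 and 1 by DESeq2, and 3 and 1 by limma-voom. The list summed to 0.304% to 0.312% of the counts with APX3330, below the 0.328% to 0.377% at saline D27. Gclm (chromosome 3, 122245557 to 122270732, plus strand) and Gclc (chromosome 9, 77754535 to 77794485, plus strand), the modifier and catalytic subunits of the rate-limiting enzyme of glutathione synthesis, rose together. Gclm had 95.7, 87.8 and 93.2 CPM with APX3330 and 59.05, 60.04 and 70.3 CPM at saline D27 (log2 fold change 0.55 ± 0.08 (SE), edgeR adjusted p = 0.0032). Gclc had 109, 88.5 and 110.3 CPM in the APX3330 libraries, against 61.6, 71.1 and 69.3 CPM in the saline D27 libraries (log2 fold change 0.61 ± 0.11 (SE), edgeR adjusted p = 0.00835). The APX3330 values of both lay above all 9 saline libraries. Cat, the hydrogen peroxide-splitting catalase, had 79.99, 72.8 and 84.9 CPM with APX3330 and 63.8, 53.98 and 60.5 CPM at saline D27 (log2 fold change 0.41 ± 0.09 (SE), edgeR adjusted p = 0.0131). With the GC offset 4 members were called higher, and 2 or 3 with each library left out.

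Rises were found in colonocyte transport and in lipid oxidation. Of 19 transport genes 5 (26.3%) were higher and 0 lower, with a median of 0.28. Log2 fold changes were negative in 7 of the 19, down to -0.91, and 4 lay below saline D27 without overlap, a position held by 15.3% of all tested genes. Lower members were 5 at an unadjusted p below 0.05, 1 by DESeq2 and 4 by limma-voom. Cftr (chromosome 6, 18170687 to 18322768, plus strand), the chloride channel of crypt cells, had 139, 171 and 212 CPM in the APX3330 libraries, against 97.7, 71.2 and 102 CPM in the saline D27 libraries (log2 fold change 0.94 ± 0.17 (SE), edgeR adjusted p = 0.00835). Aqp4, a water channel, had 718, 675 and 787 CPM with APX3330 and 355, 426 and 422 CPM at saline D27 (log2 fold change 0.86 ± 0.17 (SE), edgeR adjusted p = 0.0103). Car2, a carbonic anhydrase that supplies bicarbonate, had 853, 949.5 and 1035 CPM in the APX3330 libraries, against 562, 479 and 532 CPM in the saline D27 libraries (log2 fold change 0.85 ± 0.17 (SE), edgeR adjusted p = 0.0105). All 3 APX3330 libraries were higher in each. With Slc30a10, these are the 4 with the smallest p, and the number called was 4 with the GC offset and 3 without saline D27 replicate 1 or 2.

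Of 15 fatty acid oxidation genes and PPAR targets 4 (26.7%) were higher and 0 lower, with a median of 0.33. Cpt1a (chromosome 19, 3322334 to 3385733, plus strand), which admits fatty acids to mitochondria, had 334, 371 and 397 CPM with APX3330 and 232, 215 and 256 CPM at saline D27, above all 9 saline libraries (log2 fold change 0.65 ± 0.12 (SE), edgeR adjusted p = 0.00813). Hadhb and Acadl, enzymes of mitochondrial beta oxidation, had log2 fold changes of 0.498 and 0.40 (edgeR adjusted p = 0.0145 and 0.0168). The GC offset gave 4 calls, with Acadl not among them. Calls numbered 2 without APX3330 replicate 2 or 3, against 1 without saline D27 replicate 1 or 2. In the opposite direction, 5 of 15 genes of sterol and fatty acid synthesis (33.3%) were lower and 0 higher, with a median of -0.55. Fdft1, which makes squalene, had 94.1, 71.95 and 93.8 CPM in the APX3330 libraries, against 132, 185 and 145 CPM in the saline D27 libraries (log2 fold change -0.83 ± 0.17 (SE), edgeR adjusted p = 0.0111). Scd1, a fatty acid desaturase also abundant in fat, and Insig1, a sterol sensor, had log2 fold changes of -1.31 and -0.78 (edgeR adjusted p = 0.0309 and 0.0248). The number called was 5 with the GC offset, with Scd1 not among them. It was 0 without APX3330 replicate 2 or saline D27 replicate 2, 2 without saline D27 replicate 1, 3 without APX3330 replicate 3 and 8 without saline D27 replicate 3.

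Xenobiotic metabolism had 3 of 21 genes (14.3%) higher and 0 lower, with a median of 0.25. Cyp2c68 (chromosome 19, 39688834 to 39741054, minus strand), a cytochrome P450, had 81.8, 111 and 88.1 CPM in the APX3330 libraries, against 47.9, 30.4 and 40 CPM in the saline D27 libraries (log2 fold change 1.24 ± 0.19 (SE), edgeR adjusted p = 0.00411). Ugt2b34, a glucuronosyltransferase, had 445, 462 and 449 CPM with APX3330 and 316, 278 and 299.9 CPM at saline D27 (log2 fold change 0.60 ± 0.11 (SE), edgeR adjusted p = 0.00848). Abcc3, an exporter of conjugates, had a log2 fold change of 0.54 (edgeR adjusted p = 0.0296). The APX3330 values of Cyp2c68 and Ugt2b34 lay above all 9 saline libraries, with the reservation on Cyp2c copies given above. The GC offset gave 4 higher and 1 lower, but Ugt2b34 was not called with it. With each library left out 2 to 4 were higher and 0 lower, and Abcc3 stayed called only without APX3330 replicate 1.

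The circadian clock list had 3 of 17 genes (17.6%) higher and 1 (5.88%) lower. Besides Nr1d1, its paralog Nr1d2 had 64.7, 83.6 and 52.4 CPM in the APX3330 libraries, against 25.3, 25.8 and 50.4 CPM in the saline D27 libraries, with saline D27 replicate 3 close to the lowest APX3330 library (log2 fold change 0.98 ± 0.25 (SE), edgeR adjusted p = 0.026). Per3, a period gene, had a log2 fold change of 0.76, and the repressor Cry1 one of -0.80 (edgeR adjusted p = 0.0372 and 0.0231). None of the 4 remained called without saline D27 replicate 1 or 2 or without APX3330 replicate 2.

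Mitochondrially encoded genes were higher in 4 of 10 (40%) and lower in 0, with a median of 0.33. The cytochrome oxidase subunit mt-Co2 had 26.8, 26.2 and 16.2 CPM with APX3330 and 10.04, 10.5 and 13.5 CPM at saline D27 (log2 fold change 1.02 ± 0.18 (SE), edgeR adjusted p = 0.0068). The subunit mt-Co3 had 11.1, 12.3 and 9.51 CPM in the APX3330 libraries, against 4.91, 3.72 and 6.95 CPM in the saline D27 libraries (log2 fold change 1.08 ± 0.21 (SE), edgeR adjusted p = 0.0103), and mt-Atp6, of ATP synthase, and mt-Nd4, of complex I, had log2 fold changes of 1.16 and 0.56. These genes have nuclear copies, the levels of some are low beside mt-Co1, and 2 were called with the GC offset, 2 without APX3330 replicate 2 or saline D27 replicate 1 or 2, and 8 without saline D27 replicate 3. The list took 2.67% to 3.45% of the counts with APX3330 and 2.11% to 3.24% at saline D27, which overlap. Nuclear-encoded respiratory chain genes gave 0 calls among 16 (5 higher and 2 lower at an unadjusted p below 0.05, 3 and 1 by DESeq2, 2 and 0 by limma-voom).

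None of the 5 most abundant genes of these libraries was called by edgeR. Clca1, Fcgbp and Muc2, secreted by goblet cells, had means of 27390 ± 10180 CPM with APX3330 and 21020 ± 1615 CPM at saline D27, 21340 ± 4548 CPM with APX3330 and 18290 ± 3393 CPM at saline D27 and 11650 ± 1063 CPM with APX3330 and 13520 ± 1533 CPM at saline D27, in that order. The mucosal pentraxin Mptx1 had 10210 ± 4364 CPM with APX3330 and 7792 ± 948 CPM at saline D27, and mt-Co1 had 19370 ± 2450 CPM with APX3330 and 15220 ± 3782 CPM at saline D27. Their log2 fold changes lay between -0.21 and 0.39, and the groups overlapped in each.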

How the data were processed

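RNA from colon tissue was sequenced after extraction with a column kit and library construction with a SMARTER mRNA kit, per the labels' protocols. The authors deposited raw counts of reads for each gene, as whole numbers. GRCm38 and mm10 are the builds named in the submitters' processing notes, while the aligner, the counter and the strand setting were not given in the sources used here, so overlapping genes and near-identical copies are uncertain.

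Libraries were grouped by their labels. Genes were kept by edgeR's filterByExpr (18038 of 56859), scaled by TMM and fitted over all 15 libraries with edgeR 4.0.16 (glmQLFit, glmQLFTest) in R 4.3.3, with the contrast APX3330 minus saline D27. The SE is the log2 fold change over the square root of F. Calls have a Benjamini-Hochberg adjusted p below 0.05. The smallest p of an exact permutation test is 0.1 in this design. Counting error is small at these depths except for genes of a few counts.

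The comparison and the 51 gene lists (716 genes) were chosen with earlier results of these data known. Named genes are the 12 largest rises and 12 largest falls that were called, averaged 2 CPM or more over the 6 libraries, did not overlap and had an established symbol, the 4 members of smallest p of any described list, Apex1, and the most abundant genes (5). Of these, 3 genes are not reported here. Genes named beyond this rule, Pigr and Myl9, were chosen after their values were seen. Motifs other than the AP-1 and hypoxia words were chosen after the values were seen.

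Alternatives were DESeq2 size factors, no filter, DESeq2 1.42.0, limma-voom (limma 3.58.1) with quality weights, only the 6 libraries, the replicate number as a block, smooth muscle, gut position and adipocyte scores as covariates, a log2 fold past 1, and each library left out. Offsets for transcript GC and length (lowess, span 0.3) were added after seeing the data; 95.7% of tested genes had a value. Coordinates were matched by symbol for 17270 tested genes. The fit was tested on simulated counts. No pair of replicates agreed within counting noise (chi-square per degree of freedom 12.2 to 42.6). Plots used Python 3.11.15 and matplotlib 3.10.9.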

Additional observations from a re-analysis of the deposited data

How the results depend on the processing

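The 850 higher and 788 lower genes became 863 and 1323 with no filter on low counts (39.5% of calls higher, against 51.9% with the filter), 1234 and 1204 with the DESeq2 test, 1745 and 1377 with limma-voom, 333 and 627 with only the 6 libraries in the fit (34.7% higher), 63 and 265 past a log2 fold of 1, 2 and 0 with the smooth muscle score, and 0 and 0 with the adipocyte score. With each library left out in turn the counts ran from 139 to 1037 higher and from 223 to 853 lower. DESeq2 size factors gave 831 and 793 and the gut position score 845 and 805. Added after seeing the data, a GC offset gave 681 and 525, of which 456 and 461 were called without it, and a GC and length offset 695 and 530. The lowest quintile of genes by transcript GC had 9.87% called higher and 1.36% lower, the highest quintile 1.19% and 9.26%. The cause was not tested for the filter, tool or covariate differences. With the smooth muscle score the median log2 fold changes of the called genes were 0.50 and -0.74, with median SEs of 0.213 and 0.331, against 0.46 and -0.77 with SEs of 0.112 and 0.179 without it.

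Of the 124 called genes named in the lists and rule, 6 reversed sign, all with the adipocyte score: Pappa at -0.14, Cfd at 0.38, Car3 at 0.14, Adipoq at 0.65, Cd4 at 0.21 and Scd1 at 0.33 on the log2 scale. Cfd and Adipoq are members of the adipocyte list whose mean makes that score, so their reversals cannot be read as a test. None of the 124 was called under every alternative, since the adipocyte score ended every call. With each library left out 50 to 112 of the 124 stayed called, 38 did so in all 6 such fits, and 37 of these also with the GC offset. Same-numbered libraries of the groups did not deviate together (correlations -0.022, -0.045 and 0.025, against -0.033 to 0.054 for other pairs). Such correlations over all genes cannot decide whether replicate numbers mark a shared batch. With the replicate block 708 genes were called higher and 718 lower. Genes of a few counts, such as Retn, S100a9 and Mcpt2, are limited by depth.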

Other observations

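Some further groups held a few called members. Shares here and in the next paragraph stand beside 4.71% higher and 4.37% lower over all tested genes, and several rest on 1 gene. Of 14 claudin and junction genes 3 (21.4%) were called lower and 0 higher, with a median of 0.06. Cldn4, a sealing claudin of the surface epithelium, had 8.65, 21.5 and 11.99 CPM in the APX3330 libraries, against 55.5, 40.1 and 28.8 CPM in the saline D27 libraries (log2 fold change -1.56 ± 0.44 (SE), edgeR adjusted p = 0.0381). Cldn3, another sealing claudin, had 311, 349 and 328 CPM in the APX3330 libraries, against 529, 491 and 389 CPM in the saline D27 libraries (log2 fold change -0.51 ± 0.11 (SE), edgeR adjusted p = 0.0158), and Cldn23 a log2 fold change of -0.92. With the GC offset 1 was called, and 0 without saline D27 replicate 1 or 2. In the EGF family Tgfa, a ligand of the EGF receptor, was higher, with 30.7, 31.7 and 35.6 CPM in the APX3330 libraries, against 25.1, 22.9 and 21.4 CPM in the saline D27 libraries (log2 fold change 0.496 ± 0.10 (SE), edgeR adjusted p = 0.0125). Hbegf, a heparin-binding ligand of the same receptor, was lower, with 10.7, 14.8 and 14.5 CPM in the APX3330 libraries, against 23.4, 36.4 and 28.3 CPM in the saline D27 libraries and no overlap with any of the 9 saline libraries (log2 fold change -1.14 ± 0.30 (SE), edgeR adjusted p = 0.0301). Each was 1 of 10 tested members (10%). With a library left out, Hbegf stayed called only without saline D27 replicate 3. Tgfa lost its call without APX3330 replicate 3 or saline D27 replicate 2. Among 15 chemokines 1 (6.67%) was called higher and 2 (13.3%) lower. The higher one was Ccl28, which draws IgA-secreting cells to the colon, with 205, 247 and 235 CPM in the APX3330 libraries, against 145, 116 and 156 CPM in the saline D27 libraries (log2 fold change 0.72 ± 0.14 (SE), edgeR adjusted p = 0.00917). Cx3cl1 and Cxcl16, chemokines anchored in the membrane, had log2 fold changes of -0.48 and -0.67 (edgeR adjusted p = 0.0253 and 0.0379). Of the chemokines 1 was lower with the GC offset, and 0 to 4 with each library left out.

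Of 20 proliferation genes 2 (10.0%) were lower, the replication helicase subunits Mcm3 (log2 fold change -0.69 ± 0.17 (SE), edgeR adjusted p = 0.0241) and Mcm5 (log2 fold change -0.71 ± 0.18 (SE), edgeR adjusted p = 0.0267). With each library left out 0 to 4 proliferation genes were lower. In the unfolded protein response 2 of 19 (10.5%) were higher. Dnajb9, a chaperone of the endoplasmic reticulum, had 52.7, 89.8 and 71.9 CPM in the APX3330 libraries, against 40.9, 42.7 and 37.03 CPM in the saline D27 libraries (log2 fold change 0.83 ± 0.15 (SE), edgeR adjusted p = 0.00835), and Ern1, which encodes the stress sensor IRE1 alpha, had 125, 122 and 138 CPM in the APX3330 libraries, against 91.3, 108 and 88.6 CPM in the saline D27 libraries (log2 fold change 0.42 ± 0.10 (SE), edgeR adjusted p = 0.0241). Of 15 genes of gut position 3 (20%) were higher and 0 lower, among them the homeobox genes Hoxa13 and Hoxb9, at 0.52 and 0.56. The list had 8 positive and 7 negative log2 fold changes, down to -1.40, with a median of 0.06. With each library left out 1 to 3 were higher. Hoxa13 stayed called only without saline D27 replicate 3, and Hoxb9 lost its call without APX3330 replicate 2 or 3 or saline D27 replicate 1 or 2. In the prostaglandin list 2 of 14 (14.3%) were higher, Hpgd, which inactivates prostaglandins, at 0.41, and Pla2g4a, a phospholipase that frees arachidonic acid, at 0.33, and 0 with the GC offset. Of 14 goblet cell genes 1 (7.14%) was called lower and 0 higher, near the share of all genes. It was the trefoil peptide Tff3, with 314, 353 and 235 CPM in the APX3330 libraries, against 588, 445 and 390 CPM in the saline D27 libraries (log2 fold change -0.66 ± 0.20 (SE), edgeR adjusted p = 0.0487). Tff3 lost its call in 13 of 18 alternatives, among them the GC offset and every fit with a library left out except that without saline D27 replicate 3.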
